A study of Mus musculus with 12 samples.

Results

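The Hox genes encode homeodomain transcription factors and lie in 4 clusters, Hoxa to Hoxd. Members were the rows of the deposited expression table whose mouse symbol is Hoxa, Hoxb, Hoxc or Hoxd with a number, and antisense and other noncoding transcripts of the clusters were left out. All 39 mouse Hox genes were found among the 24432 genes of the table, and 32 of them passed a filter of at least 1 FPKM in at least 3 of the 12 libraries. FPKM counts fragments per kilobase of transcript, relative to library size. In the GRCm38 assembly the 11 Hoxa genes span chr6:52155590-52260880, the 10 Hoxb genes chr11:96194316-96368256, the 9 Hoxc genes chr15:102921103-103036852 and the 9 Hoxd genes chr2:74668310-74765142.

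The data were bulk RNA sequencing of 12 libraries from mice, 3 in each of 4 groups. Allograft tumors grew from cells with the genotype Lats1-/-;Lats2-/- that had been placed under the renal capsule of NOD/scid hosts aged 6 to 8 weeks, and were taken after 6 weeks. Whether these cells are 1 clone is not stated in the labels. Lung metastases and primary kidney tumors came from Slc34a1CreERT2;Lats1/2flox/flox mice of mixed strain background. These mice received 3 tamoxifen injections at 1 month of age and were examined 4 months later. Tamoxifen activates the Cre recombinase in cells that express Slc34a1, which encodes a proximal tubule phosphate transporter, and Cre then deletes Lats1 and Lats2, the kinases that restrain YAP and TAZ. The proximal tubule cells were sorted from adult Slc34a1CreERT2;Lats1c/c;Lats2c/+;RosaTomato mice. They carry Cre and conditional Lats alleles, are labelled as wild type, and their tamoxifen treatment and recombination are not given. The labels do not tie the libraries of a group to separate animals, and the p-values reflect the spread of these libraries, and this may be technical.

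Hox genes are switched on along the head-to-tail axis of the embryo in the order in which they lie in a cluster, so that low-numbered genes mark anterior and high-numbered genes mark posterior levels. Adult cells often keep the Hox combination of the body region in which they arose, and the kidney, which forms from posterior mesoderm, is known to need Hoxa11, Hoxc11 and Hoxd11. Hoxa5 is known from the patterning of the lung and trachea. Hox proteins bind DNA with PBX and MEIS cofactors, retinoic acid activates the anterior ends of the clusters, and Polycomb proteins keep the silent genes shut.

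The summed Hox level in FPKM was lower in the lung metastases than in every other group, though the gap to the allograft tumors closed under another scaling, and the Hoxd cluster held its smallest share there. The 39 Hox levels summed to 150.3, 180.8 and 222 FPKM in allograft tumors, 100.1, 76.6 and 70.5 in metastases, 233, 273 and 367 in primary tumors and 168, 173 and 156 in proximal tubule cells. The FPKM of all genes summed to between 7.06e+05 and 2.53e+06 per library, so these sums depend on the scaling. After rescaling to TPM, which gives every library the same total, the Hox sums were 59.5, 134 and 105 in allograft tumors, 65.5, 53.7 and 44.9 in metastases, 156, 153 and 262 in primary tumors and 238, 234 and 219 in proximal tubule cells. On that scale the metastases were still below every primary tumor and proximal tubule library, but allograft tumor 1 lay among them, and the primary tumors overlapped with the proximal tubule cells. The Hoxd genes held 17.3 to 25.3% of that sum in the allograft tumors, 5.73 to 6.26% in the metastases, 25.2 to 37.8% in the primary tumors and 24.4 to 29.9% in the proximal tubule cells, so the metastases overlapped with no other group. The Hoxb share was 41.9 to 45.4% in the allograft tumors, 54.6 to 57.2% in the metastases, 25.9 to 47.0% in the primary tumors and 26.3 to 28.7% in the proximal tubule cells. The Hoxc share was 6.91 to 7.54% in the metastases and 8.78 to 13.9% over the other 9 libraries. A share is a ratio within a library, so it does not depend on how the libraries are scaled against each other, but it does not tell which cluster moved.

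**Figure D1:**
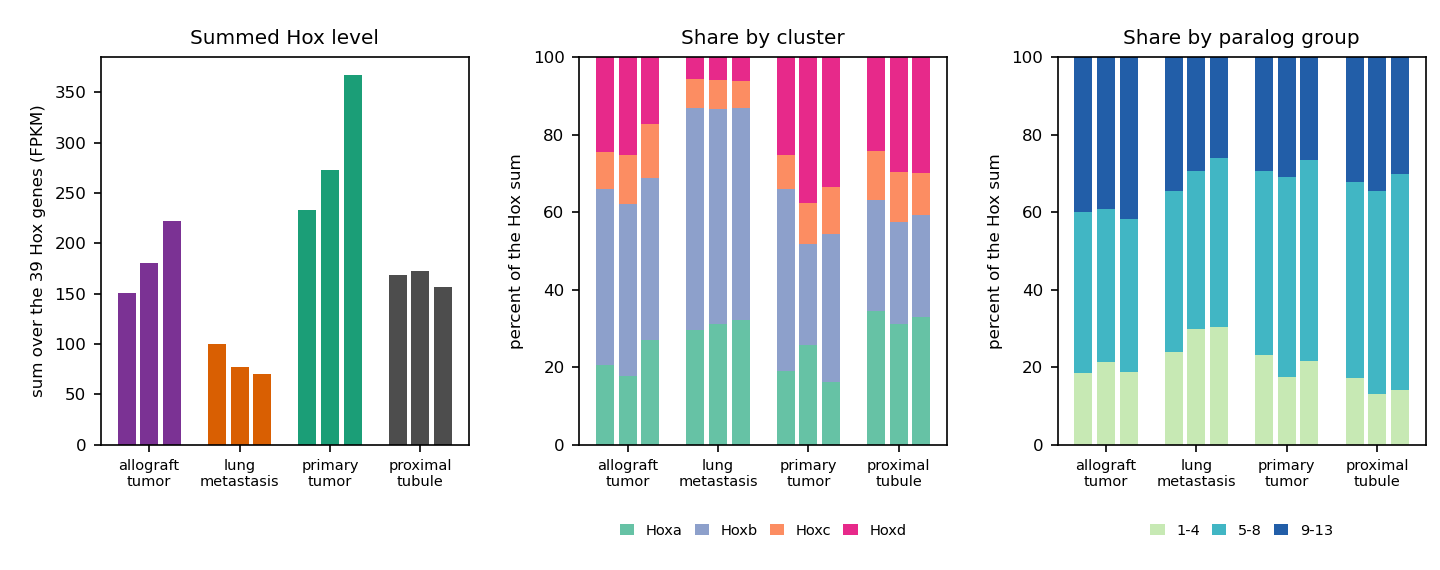
Summed level of the 39 Hox genes (FPKM, left) and the percent of that sum held by each cluster (middle) and by paralog groups 1-4, 5-8 and 9-13 (right), 1 bar per library. The Hoxd share is 5.73 to 6.26% in the 3 metastases and 17.3 to 37.8% in the other 9 libraries.

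The tissue labels were checked against marker genes. Summed levels of 6 lung epithelial markers, among them Sftpc and Scgb1a1, were 3.30 to 18.9 FPKM in the allograft tumors, 11884.5 to 18967 in the metastases, 4.23 to 8.72 in the primary tumors and 2.50 to 3.12 in the proximal tubule cells. The lowest of the 6 in the metastases was Nkx2-1, at 12.2, 15.8 and 16.4 FPKM, while Sftpc, Sftpb, Sftpa1 and Scgb1a1 were listed at 0 in the 3 proximal tubule libraries. The 4 lung mesenchymal markers summed to 0.861 to 1.85 FPKM in the allograft tumors, 27.9 to 62.6 in the metastases, 19.3 to 39.9 in the primary tumors and 0.259 to 0.458 in the proximal tubule cells. In the primary tumors that sum was mostly Tcf21, a gene that kidney stroma and podocytes also use, at 37.9, 18.8 and 21.3 FPKM, while Tbx4 was at most 0.0597 and Tbx5 at most 0.541 FPKM there. The 7 proximal tubule markers, among them Lrp2 and Slc34a1, summed to 10.3 to 29.6 FPKM in the allograft tumors, 31.3 to 40.8 in the metastases, 72.4 to 3461 in the primary tumors and 4656 to 5509 in the sorted cells. In the metastases that sum was mostly Lrp2, at 39.9, 33.1 and 30.4 FPKM, while Slc34a1 was at most 0.0951 FPKM. The 7 collecting duct and ureteric markers, among them Aqp2 and Scnn1g, summed to 2.69 to 3.50 FPKM in the allograft tumors, 23.1 to 29.4 in the metastases, 32.5 to 1271 in the primary tumors and 122 to 165 in the proximal tubule cells. In the metastases that sum was mostly Scnn1g, at 19.0, 24.2 and 25.4 FPKM, while Aqp2 was at most 0.197 FPKM. The 4 podocyte markers summed to 6.62 to 17.4 FPKM in the allograft tumors, 15.5 to 23.2 in the metastases, 40.2 to 96.0 in the primary tumors and 12.2 to 18.7 in the proximal tubule cells. In metastases against primary tumors 6 of the 7 proximal tubule markers, 6 of the 7 collecting duct and ureteric markers and 3 of the 4 podocyte markers fell, with median changes of -5.34, -4.41 and -2.20. In primary tumors against proximal tubule cells the median change was 1.78 over the podocyte markers and 0.59 over all genes. Primary tumor 1 held 72.4 FPKM of the proximal tubule markers, and primary tumors 2 and 3 held 3461 and 745. The metastasis libraries thus carried lung transcripts, and the primary tumors, most of all 2 and 3, carried transcripts of several kidney cell types. The sorted proximal tubule libraries also carried collecting duct transcripts, with Aqp2 at 23.7, 31.4 and 31.6 FPKM. The part of any of these in the Hox levels was not tested, and lung without tumor was not analysed here. In bulk libraries fewer cells of a type and less RNA per cell cannot be told apart.

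Depth is not stated, and steps between low values gave an estimate of 11.5 to 18.6 M fragments (M, mega) in the 9 tumor libraries and 4.88 to 6.30 M in the 3 proximal tubule libraries. One fragment of a 2 kb transcript was then worth 0.0269 to 0.0434 FPKM in the tumors and 0.0794 to 0.103 FPKM in the proximal tubule cells. The proximal tubule columns followed such steps less well, with 61.3 to 68.6% of low genes within 0.15 of a step, against 75.9 to 82.0% in the tumors. Whether all columns were made with the same gene lengths is not given, and every difference from the proximal tubule cells rests on that.

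**Figure D2:**
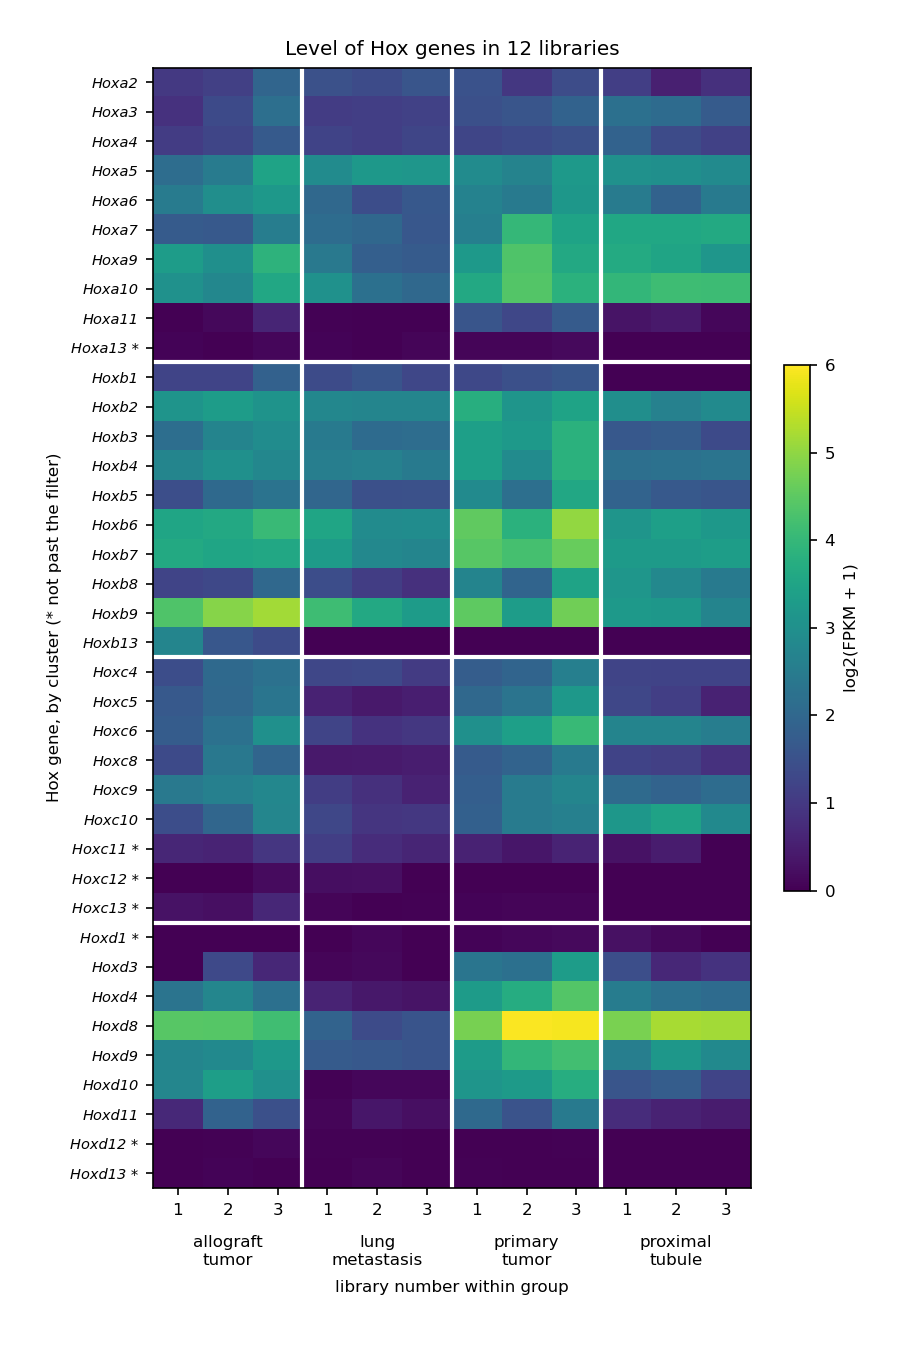
Level of the Hox genes, as log2(FPKM + 1), in the 12 libraries. Rows run from the anterior to the posterior end of each cluster, and genes marked with an asterisk did not pass the filter. The Hoxd rows are dark in the 3 metastases, while Hoxa5 overlaps among the groups.

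Levels, changes and tests are given on these scales throughout. A change is the difference in log2(FPKM + 1) between the first and the second group named, with its SE and with 3 libraries in each group, and it understates the change of low genes. Adjusted p-values come from limma, a linear model with moderated variances fitted to all 16313 genes past the filter, with Benjamini-Hochberg adjustment over all of them, and a gene is said to have risen or fallen at an adjusted p under 0.05. Across the 4 groups 28 of the 32 Hox genes differed in limma's F test, where 79.5% of all genes did. The 4 others were Hoxa2, Hoxa3, Hoxa4 and Hoxa5, neighbours at the anterior end of the Hoxa cluster.

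In lung metastases against primary tumors 24 of 32 Hox genes fell, where 9.59% of all genes fell, and 0 rose, either by limma's adjusted p or at an unadjusted p under 0.05, where 11.3% of all genes rose. The median change was -1.40 over the Hox genes and 0.01 over all genes. All 6 Hoxd genes and all 6 Hoxc genes past the filter fell, with medians of -2.93 and -1.55. Of the Hoxb genes 7 of 10 fell (median -1.02), and of the Hoxa genes 5 of 10 (median -0.79). In 26 of the 32 genes every metastasis was below every primary tumor, where the same held for 20.1% of all genes. Of the 24 calls 11 held in every alternative processing, those of Hoxd3, Hoxd4, Hoxd8, Hoxd9, Hoxd10, Hoxd11, Hoxc5, Hoxc6, Hoxc9, Hoxa11 and Hoxb7. Of these, Hoxa11 passed the filter only through the primary tumors. Against primary tumor 1 alone, the one with the lowest kidney marker sum, 15 genes fell, all of them among these 24.

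Hoxd8 and Hoxd10 are neighbours of Hoxd9 on chromosome 2 and are among the 11 genes whose fall against primary tumors held in every alternative. The 250 bases before their start sites are shown as examples, beside those of Hoxa5, which did not pass the F test among the groups. The sequences are from RefSeq (GRCm38.p6), which gave a promoter for 22 of the 39 members, and run 5′ to 3′ on the gene's strand. Capitals mark AGGTCA, the hexamer bound by retinoic acid receptors, or its reverse complement TGACCT.
Hoxd8, chr2:74704365-74704614, plus strand: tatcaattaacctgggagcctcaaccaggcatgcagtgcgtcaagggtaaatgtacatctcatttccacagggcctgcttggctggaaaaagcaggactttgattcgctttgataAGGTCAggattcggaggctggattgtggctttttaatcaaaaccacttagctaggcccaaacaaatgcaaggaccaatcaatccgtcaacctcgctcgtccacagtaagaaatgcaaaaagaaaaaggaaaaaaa
Hoxd10, chr2:74691641-74691890, plus strand: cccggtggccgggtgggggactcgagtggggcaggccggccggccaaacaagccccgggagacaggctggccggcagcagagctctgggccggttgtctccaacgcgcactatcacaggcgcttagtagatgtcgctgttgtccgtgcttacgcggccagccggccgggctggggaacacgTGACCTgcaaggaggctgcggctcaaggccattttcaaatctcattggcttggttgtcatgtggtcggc
Hoxa5, chr6:52204588-52204837, minus strand: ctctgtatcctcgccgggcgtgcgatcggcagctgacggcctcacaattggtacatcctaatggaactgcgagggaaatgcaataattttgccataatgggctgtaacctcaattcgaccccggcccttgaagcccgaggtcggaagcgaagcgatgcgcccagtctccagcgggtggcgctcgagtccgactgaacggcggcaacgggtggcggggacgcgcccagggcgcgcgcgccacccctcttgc
On either strand AGGTCA was found in 6 of the 24 promoters of these 22 members, those of Hoxb4, Hoxc4, Hoxd3, Hoxd4, Hoxd8 and Hoxd10. It was found in 14.0% of 32851 mouse promoters of the same length. Hoxd11, whose fall also held in every alternative, had a promoter without AGGTCA, while Hoxb4, whose fall was lost in some, had it. Whether the motif goes with the falls was not tested. GGAATG, bound by the TEAD partners of YAP and TAZ, was found in 1 member promoter, that of Hoxa9, and in 12.6% of all. TGACAG, a MEIS motif, was in 2 (Hoxa2 and Hoxa3) and in 15.9% of all, and TGATTNAT, a joint PBX and HOX motif, was in 2 (Hoxa2 and Hoxd11) and in 2.82% of all. Such matches describe letters in this window and do not show binding.

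Hoxd8 was the most abundant Hox gene of the proximal tubule cells and of the primary tumors. Its levels were 20.8, 20.4 and 17.0 FPKM in allograft tumors, 2.75, 1.59 and 1.96 in metastases, 26.3, 61.8 and 59.8 in primary tumors and 26.7, 36.1 and 34.7 in proximal tubule cells. The 3 metastases were the lowest of the 12 libraries, and primary tumors 2 and 3 the highest. Hoxd8 fell in metastases against primary tumors (-3.94 ± 0.30, adjusted p = 1.36e-05) and against proximal tubule cells (-3.44 ± 0.30, adjusted p = 7.90e-06), and was higher in allograft tumors than in metastases (2.73 ± 0.30, adjusted p = 1.41e-04). Its change in primary tumors against proximal tubule cells was 0.50 ± 0.30, adjusted p = 0.176, and the groups overlapped.

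Hoxd10, which together with Hoxc10 patterns lumbar motor neurons, was near the level of single fragments in the metastases. Its levels were 5.80, 9.25 and 7.13 FPKM in allograft tumors, 0.0298, 0.0718 and 0.0761 in metastases, 7.71, 8.69 and 12.4 in primary tumors and 1.98, 2.42 and 1.36 in proximal tubule cells. Allograft and primary tumors were both above the proximal tubule cells, and the metastases were below them, with overlap only between allograft and primary tumors. Hoxd10 fell in metastases against primary tumors (-3.30 ± 0.22, adjusted p = 5.69e-06) and against proximal tubule cells (-1.45 ± 0.22, adjusted p = 2.01e-04). It rose in primary tumors against proximal tubule cells (1.85 ± 0.22, adjusted p = 1.04e-04) and was higher in allograft tumors than in metastases (2.97 ± 0.22, adjusted p = 1.04e-05).

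Hoxd4, a gene of the cervical spine, followed a like order. Its levels were 3.92, 5.71 and 3.64 FPKM in allograft tumors, 0.516, 0.298 and 0.237 in metastases, 8.75, 12.2 and 19.9 in primary tumors and 4.75, 3.62 and 3.27 in proximal tubule cells. The metastases overlapped with no other group, and the allograft tumors overlapped with the proximal tubule cells. Its change was -3.37 ± 0.27, adjusted p = 1.95e-05 in metastases against primary tumors and -1.85 ± 0.27, adjusted p = 1.66e-04 against proximal tubule cells. In allograft tumors against metastases it was 1.99 ± 0.27, adjusted p = 5.28e-04. Hoxd4 shares 39.1% of its exon bases with the same-strand gene Gm28230 and 13.2% with Hoxd3, so fragments could be split among them. The antisense gene Hoxd3os1 overlaps 11.8% of these bases, and strand was not stated.

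Hoxd9, which acts with Hoxa9 in the forelimb, had 5.59, 6.20 and 8.21 FPKM in allograft tumors, 2.30, 2.14 and 1.94 in metastases, 8.74, 14.6 and 17.1 in primary tumors and 4.93, 8.05 and 6.19 in proximal tubule cells. The metastases were again the 3 lowest libraries. Hoxd9 fell in metastases against primary tumors (-2.17 ± 0.25, adjusted p = 2.43e-04) and against proximal tubule cells (-1.22 ± 0.25, adjusted p = 0.00137).

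Hoxd3, which shapes the first vertebra, had 0, 1.50 and 0.581 FPKM in allograft tumors, 0.0540, 0.0866 and 0 in metastases, 4.02, 3.65 and 8.92 in primary tumors and 1.73, 0.589 and 0.847 in proximal tubule cells. Metastases 1 and 2 were at levels of a few fragments, and every primary tumor was above every other library. It fell in metastases against primary tumors (-2.55 ± 0.37, adjusted p = 0.00105) and in allograft tumors against primary tumors (-1.96 ± 0.37, adjusted p = 0.00230). Hoxd3 shares 53.1% of its exon bases with the same-strand gene Gm28230 and 9.3% with Hoxd4, so fragments could be split among them in counting. Hoxd11, one of the genes the kidney needs, ranged from 0.0613 to 0.295 FPKM in the metastases and from 1.92 to 4.42 in the primary tumors, and fell (-1.77 ± 0.30, adjusted p = 0.00278). It rose in primary tumors against the proximal tubule cells (1.42 ± 0.30, adjusted p = 0.00291), which held 0.368 to 0.694 FPKM. Hoxd1, Hoxd12 and Hoxd13 did not pass the filter and stayed at 0.211 FPKM or less in all libraries.

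Hoxa11, the other kidney gene past the filter, was detected mainly in the primary tumors. Its levels were 0, 0.0962 and 0.529 FPKM in allograft tumors, 0.0234, 0 and 0 in metastases, 2.01, 1.42 and 2.29 in primary tumors and 0.250, 0.328 and 0.0706 in proximal tubule cells. Every primary tumor was above all other libraries. Limma called Hoxa11 higher in primary tumors against proximal tubule cells (1.25 ± 0.18). It called Hoxa11 lower against primary tumors in metastases (-1.52 ± 0.18) and in allograft tumors (-1.28 ± 0.18). Hoxa11 passed the filter only through the primary tumors, so these calls are no independent support for its being highest there. Its antisense partner Hoxa11os overlaps 35.0% of its exon bases, and strand was not stated, so the 2 cannot be told apart. Hoxc11 did not pass the filter, and averaged 0.666 ± 0.226 FPKM in allograft tumors, 0.795 ± 0.312 in metastases, 0.429 ± 0.123 in primary tumors and 0.200 ± 0.187 in proximal tubule cells (SD, n = 3 each).

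All 6 Hoxc genes past the filter fell in metastases against primary tumors, and the calls of Hoxc5, Hoxc6 and Hoxc9 held in every alternative. Against proximal tubule cells 3 of the 6 fell. Hoxc6, which helps to set limb-level motor neurons, had 2.34, 3.70 and 7.02 FPKM in allograft tumors, 1.36, 0.827 and 0.970 in metastases, 7.04, 9.49 and 15.4 in primary tumors and 5.48, 5.55 and 4.86 in proximal tubule cells. Each metastasis was below every other library. Hoxc6 fell against primary tumors (-2.45 ± 0.33, adjusted p = 6.13e-04) and against proximal tubule cells (-1.62 ± 0.33, adjusted p = 0.00124).

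Hoxc9, which specifies thoracic motor neurons, had 4.37, 5.07 and 5.82 FPKM in allograft tumors, 1.14, 0.782 and 0.498 in metastases, 2.46, 4.67 and 5.66 in primary tumors and 3.20, 2.74 and 3.35 in proximal tubule cells. The metastases were the 3 lowest libraries, and the allograft tumors overlapped with the primary tumors alone. Its change was -1.51 ± 0.24, adjusted p = 0.00204 in metastases against primary tumors, -1.19 ± 0.24, adjusted p = 0.00132 in metastases against proximal tubule cells and 1.76 ± 0.24, adjusted p = 5.65e-04 in allograft tumors against metastases.

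Hoxc5 had 2.20, 3.06 and 4.01 FPKM in allograft tumors, 0.500, 0.324 and 0.418 in metastases, 3.11, 3.98 and 8.16 in primary tumors and 1.43, 1.16 and 0.479 in proximal tubule cells. It fell in metastases against primary tumors (-2.02 ± 0.30, adjusted p = 0.00134), and proximal tubule library 3 lay among the metastases. Hoxc10 had 1.69, 2.98 and 5.79 FPKM in allograft tumors, 1.40, 0.897 and 0.952 in metastases, 2.59, 4.66 and 5.14 in primary tumors and 8.07, 10.0 and 6.24 in proximal tubule cells. The proximal tubule cells held the most Hoxc10 of all groups, and it fell against them in metastases (-2.11 ± 0.33, adjusted p = 2.63e-04) and in allograft tumors (-1.11 ± 0.33, adjusted p = 0.0120). Hoxc5 and Hoxc10 share 166 exon bases on the same strand. Hoxc8, a brachial motor neuron gene, ranged from 0.338 to 0.403 FPKM in the metastases and from 1.55 to 4.33 in the allograft tumors, and was higher in the allograft tumors (1.46 ± 0.27, adjusted p = 0.00333).

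**Figure D3:**
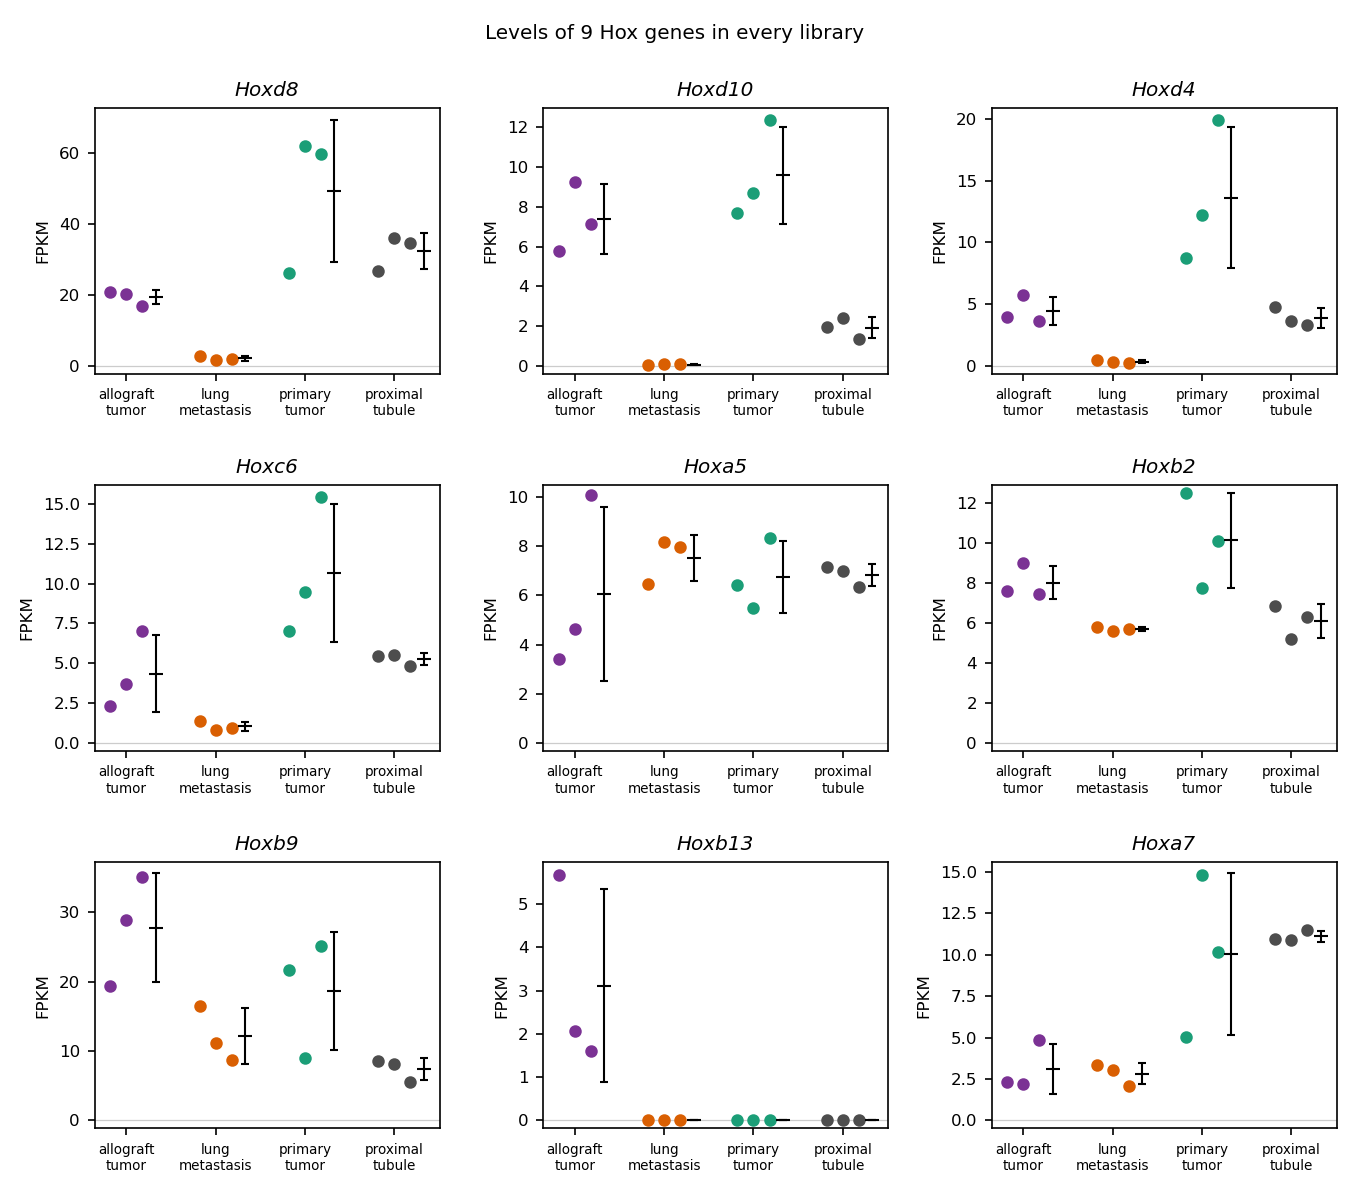
FPKM of 9 Hox genes in each library (points, libraries 1 to 3 from left to right in a group), with the mean and SD of the 3 libraries beside them. Hoxd8, Hoxd10, Hoxd4 and Hoxc6 are lowest in the metastases, Hoxa5 overlaps in all groups, and Hoxb13 is above 0 in the allograft tumors alone.

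By the adjusted p threshold the Hoxa cluster was divided in the metastases. Hoxa2, Hoxa3, Hoxa4 and Hoxa5 did not pass the threshold against primary tumors, with changes of -0.53 to 0.18, whereas Hoxa6, Hoxa7, Hoxa9, Hoxa10 and Hoxa11 all fell. This division was seen in the values and is a description, and it was not sharp. For Hoxa3 and Hoxa4 too every metastasis was below every primary tumor, as for 20.1% of all genes. The calls of Hoxa6, Hoxa7, Hoxa9 and Hoxa10 were each lost in at least 1 alternative. Hoxa5 had 3.42, 4.64 and 10.1 FPKM in allograft tumors, 6.45, 8.15 and 7.94 in metastases, 6.43, 5.48 and 8.34 in primary tumors and 7.16, 6.97 and 6.33 in proximal tubule cells. The 4 groups overlapped, and its change was 0.15 ± 0.29, adjusted p = 0.762 in metastases against primary tumors.

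Hoxa9, a gene of blood stem cells and leukemia, had 8.90, 6.97 and 13.8 FPKM in allograft tumors, 4.39, 2.54 and 2.29 in metastases, 8.43, 19.2 and 11.3 in primary tumors and 11.8, 10.4 and 7.86 in proximal tubule cells. Hoxa10, known from the uterus, had 7.20, 5.82 and 11.2 FPKM in allograft tumors, 7.17, 3.63 and 3.09 in metastases, 11.3, 19.9 and 13.2 in primary tumors and 14.8, 16.7 and 16.3 in proximal tubule cells. For both, the metastases were below every proximal tubule library and every primary tumor. Against proximal tubule cells Hoxa9 fell in the metastases (-1.45 ± 0.33, adjusted p = 0.00254), and so did Hoxa10 (-1.65 ± 0.31, adjusted p = 7.54e-04).

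Hoxa7 had 2.29, 2.18 and 4.85 FPKM in allograft tumors, 3.34, 3.03 and 2.09 in metastases, 5.05, 14.8 and 10.2 in primary tumors and 11.0, 10.9 and 11.5 in proximal tubule cells. Allograft tumors and metastases were both below all 3 proximal tubule libraries, and primary tumor 1 was near them. Hoxa7 fell against proximal tubule cells in allograft tumors (-1.62 ± 0.34, adjusted p = 0.00160) and in metastases (-1.68 ± 0.34, adjusted p = 0.00137). Hoxa6 had 4.60, 6.76 and 8.22 FPKM in allograft tumors, 3.08, 1.66 and 2.17 in metastases, 5.27, 4.42 and 7.98 in primary tumors and 4.60, 2.71 and 4.55 in proximal tubule cells. Its metastases were below every primary and allograft tumor but overlapped with the proximal tubule cells.

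In metastases against primary tumors Hoxb7 was the Hoxb gene whose fall held in every alternative. Hoxb7, whose promoter is used to label the ureteric bud, had 11.4, 10.5 and 11.1 FPKM in allograft tumors, 8.80, 5.97 and 5.62 in metastases, 20.8, 17.9 and 23.4 in primary tumors and 8.64, 8.63 and 9.18 in proximal tubule cells. All 3 primary tumors were above the other 9 libraries. Hoxb7 fell against primary tumors in metastases (-1.49 ± 0.17, adjusted p = 2.40e-04) and in allograft tumors (-0.85 ± 0.17, adjusted p = 0.00331).

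Hoxb8, a gene of myeloid cells and microglia, had 1.34, 1.48 and 3.09 FPKM in allograft tumors, 1.68, 1.13 and 0.767 in metastases, 5.57, 2.79 and 10.1 in primary tumors and 7.92, 5.99 and 4.54 in proximal tubule cells. Allograft tumors and metastases were both below all proximal tubule libraries. Hoxb8 fell against proximal tubule cells in metastases (-1.70 ± 0.38, adjusted p = 0.00233) and in allograft tumors (-1.29 ± 0.38, adjusted p = 0.0107).

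Hoxb9, a gene of the thoracic skeleton, had 19.4, 28.9 and 35.1 FPKM in allograft tumors, 16.5, 11.2 and 8.74 in metastases, 21.7, 8.98 and 25.2 in primary tumors and 8.52, 8.05 and 5.51 in proximal tubule cells. It was the most abundant Hox gene of the allograft tumors (27.8 ± 7.90 FPKM, SD, n = 3) and of the metastases (12.2 ± 3.99 FPKM, SD, n = 3). Its change in metastases against primary tumors was -0.50 ± 0.38, adjusted p = 0.368, and these groups overlapped. In allograft tumors against proximal tubule cells it rose (1.77 ± 0.38, adjusted p = 0.00170), and the groups did not overlap. After rescaling to TPM that change was 0.44 (adjusted p = 0.41), and the call was lost.

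Hoxb2, Hoxb3, Hoxb4, Hoxb5 and Hoxb6 had changes of -1.36 to -0.71 in metastases against primary tumors, and each of these calls was lost in at least 1 alternative. Hoxb2, a hindbrain gene, had 7.60, 8.98 and 7.48 FPKM in allograft tumors, 5.80, 5.61 and 5.69 in metastases, 12.5, 7.75 and 10.1 in primary tumors and 6.85, 5.19 and 6.30 in proximal tubule cells. Hoxb3 had 3.50, 5.50 and 6.52 FPKM in allograft tumors, 4.45, 3.30 and 3.43 in metastases, 9.52, 8.26 and 13.2 in primary tumors and 2.15, 2.35 and 1.55 in proximal tubule cells. Hoxb4, known from blood stem cells, had 5.63, 7.05 and 5.89 FPKM in allograft tumors, 4.94, 5.23 and 4.42 in metastases, 9.40, 6.45 and 13.3 in primary tumors and 3.57, 3.71 and 3.95 in proximal tubule cells. For these 3 genes the metastases were below every primary tumor and above or among the proximal tubule libraries. Hoxb5, a gene of the enteric nervous system, had 1.71, 3.16 and 3.89 FPKM in allograft tumors, 2.96, 1.78 and 1.81 in metastases, 6.26, 3.55 and 11.1 in primary tumors and 2.78, 2.18 and 2.00 in proximal tubule cells. Hoxb6 had 10.6, 11.3 and 15.8 FPKM in allograft tumors, 10.5, 6.38 and 6.60 in metastases, 22.2, 13.3 and 31.5 in primary tumors and 7.80, 9.44 and 8.13 in proximal tubule cells. Both were higher in primary tumors 1 and 3 than in any other library. Hoxb3 overlaps antisense Hoxb3os in 52.9% and Hoxb2 in 27.3% of its exon bases.

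In lung metastases against proximal tubule cells 13 Hox genes fell, where 14.4% of all genes fell, and 3 rose, where 54.0% of all genes rose. The median change was -0.42 over the Hox genes and 0.68 over all genes. Of the 13 falls 11 held in every alternative, those of Hoxa7, Hoxa9, Hoxa10, Hoxb8, Hoxc6, Hoxc9, Hoxc10, Hoxd4, Hoxd8, Hoxd9 and Hoxd10. The 3 rises were those of Hoxa2, Hoxb3 and Hoxb1, of which Hoxb1 held in every alternative. Without metastasis 1, without metastasis 3 or without proximal tubule library 3 the rises numbered 1, and they also numbered 1 after rescaling to TPM or with median-of-ratios scaling, which sets the libraries by the typical ratio of their genes. Hoxb1, a hindbrain gene, had 1.36, 1.34 and 2.66 FPKM in allograft tumors, 1.59, 1.95 and 1.43 in metastases, 1.48, 1.75 and 2.06 in primary tumors and 0, 0 and 0 in proximal tubule cells. It was listed at 0 in the proximal tubule libraries, which were the shallowest, so no fold is given.

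**Figure D4:**
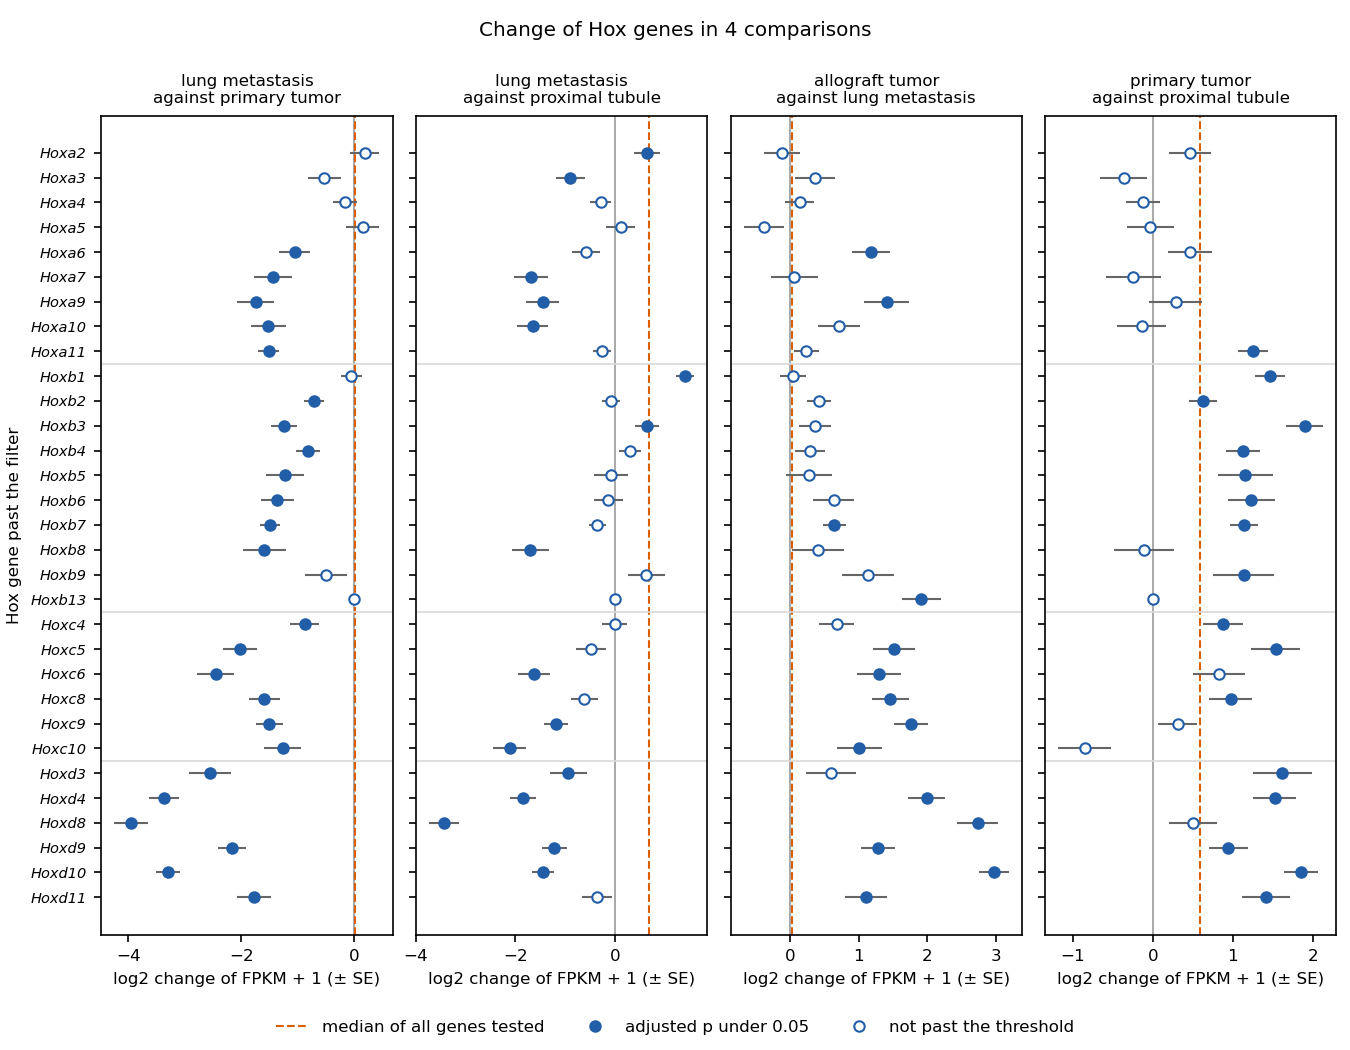
Change in log2(FPKM + 1) ± SE of Hox genes past the filter in 4 comparisons, with filled points at an adjusted p under 0.05 and a dashed line at the median of all 16313 genes. All 24 filled points of the first panel lie below 0, and the filled points of the third panel all lie above 0.

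The summed Hox FPKM was higher in each allograft tumor than in any metastasis, but after rescaling to TPM allograft tumor 1 lay below metastasis 1. In allograft tumors against metastases 14 Hox genes rose, where 10.4% of all genes rose, and 0 fell, either by limma's adjusted p or at an unadjusted p under 0.05, where 13.3% of all genes fell. The median change was 0.66 over the Hox genes and 0.03 over all genes. Without allograft tumor 3 the falls numbered 1. The count of rises was 9 without metastasis 2, 9 without metastasis 3 and 7 after rescaling to TPM. Of these rises 6 held in every alternative, those of Hoxb13, Hoxc8, Hoxc9, Hoxd4, Hoxd8 and Hoxd10. Of these, Hoxb13 passed the filter only through the allograft tumors. The 6 fibroblast markers summed to 725 to 1940 FPKM in the allograft tumors and 352 to 451 in the metastases. In the allograft tumors that sum was mostly Col3a1, at 652, 1267 and 448 FPKM. Against metastases 2 of the 6 markers rose and 1 fell. The part of host or stromal cells in the Hox levels was not tested.

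Hoxb13, the most posterior Hoxb gene and known from the prostate and the tail, was found in the allograft tumors alone. It stood at 5.68, 2.07 and 1.59 FPKM in allograft tumors 1 to 3 and was listed at 0 in the other 9 libraries. Limma called Hoxb13 higher in allograft tumors against each other group. It passed the filter only through the allograft tumors, so these calls are no independent support for its being high there. No fold is given against groups listed at 0. Hoxc13 was also at its highest there, at 0.180 to 0.600 FPKM, against at most 0.0656 FPKM elsewhere, and did not pass the filter. Genes of paralog groups 9 to 13 held 39.2 to 41.7% of the Hox sum in the allograft tumors, 26.1 to 34.5% in the metastases, 26.5 to 31.0% in the primary tumors and 30.2 to 34.5% in the proximal tubule cells. The clusters differed in this. The Hoxb part was 16.5 to 17.1% in allograft tumors, 12.4 to 16.5% in metastases, 3.29 to 9.30% in primary tumors and 3.53 to 5.07% in proximal tubule cells. The allograft tumors thus overlapped with the metastases, where this part was Hoxb9 alone. Against proximal tubule cells the Hoxd part was also higher in allograft tumors. The Hoxa part was lower, at 7.13 to 11.5% against 15.5 to 15.9%, and so was the Hoxc part. The 4 mesothelial markers summed to 95.8 to 313 FPKM in the allograft tumors and at most 20.7 FPKM elsewhere. In the allograft tumors that sum was mostly Msln, at 93.4, 115 and 309.9 FPKM. Against metastases 2 of the 4 markers rose and 2 fell, where 10.4% of all genes rose and 13.3% fell. The part of mesothelial cells was not tested.

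In allograft tumors against primary tumors 11 Hox genes fell, where 21.1% of all genes fell, and 2 rose, Hoxb13 among them, where 20.5% of all genes rose. Without allograft tumor 1 the falls numbered 7, without primary tumor 3 they numbered 6, and without primary tumors 2 and 3 they numbered 3. Those of Hoxa11, Hoxb7 and Hoxd3 held in every alternative.

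In allograft tumors against proximal tubule cells 11 Hox genes rose, where 52.2% of all genes rose, and 4 fell, where 16.9% of all genes fell. Leaving out allograft tumor 2 left 7 rises and leaving out proximal tubule library 3 left 6. The falls of Hoxa7, Hoxb8 and Hoxc10 and the rises of Hoxb1 and Hoxb13 held in every alternative.

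In primary tumors against proximal tubule cells 17 Hox genes rose, where 48.2% of all genes rose, and 0 fell by limma's adjusted p, where 4.90% of all genes fell. At an unadjusted p under 0.05, 1 Hox gene was lower. The Hoxb cluster held 8 of the 17 and the Hoxd cluster 5, while 1 of 10 Hoxa genes rose. Of the 17 rises 5 held in every alternative, those of Hoxa11, Hoxb1, Hoxb3, Hoxd10 and Hoxd11, and that of Hoxb3 was 1.89 ± 0.23, adjusted p = 1.33e-04. Changes against the proximal tubule cells depend on the scaling, since all genes had a median change of 0.66 in allograft tumors, 0.68 in metastases and 0.59 in primary tumors. The splits of higher to lower calls were 11 to 4, 3 to 13 and 17 to 0 in these 3 comparisons. With median-of-ratios scaling they were 4 to 9, 1 to 18 and 9 to 2, and after rescaling to TPM 2 to 14, 1 to 21 and 5 to 7. Relative to the median of all genes, the log2 change was 1.31 for Hoxb3 and 1.26 for Hoxd10 in primary tumors, and -4.12 for Hoxd8 in metastases.

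The pattern across the 39 genes was compared between libraries, without a test, because the lengths of the genes enter every library and each library enters several pairs. The median Pearson correlation of log2(FPKM + 1) over the Hox genes was 0.854 between primary tumors and proximal tubule cells, 0.784 between allograft tumors and proximal tubule cells and 0.695 between metastases and proximal tubule cells, over 9 pairs of libraries each. Over all 16313 genes past the filter the values were 0.796, 0.571 and 0.569. The Hox values also take in members that did not pass the filter, so the 2 sets of values are not like for like. Between metastases and primary tumors the Hox correlation was 0.675 and that of all genes 0.741.

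Noncoding genes of the clusters were examined beside the coding ones. In metastases against primary tumors 4 of 9 tested fell, where 9.59% of all genes fell, and 0 rose by limma's adjusted p or at an unadjusted p under 0.05. Of the 4 falls, those of Hoxd3os1 and Hoxa11os held in every alternative, that of Mir196a-1 was lost in 6 of 13 and that of Hoxb5os without primary tumors 2 and 3. Hoxd3os1, antisense at Hoxd3, had 7.77, 7.10 and 6.36 FPKM in allograft tumors, 0.875, 0.210 and 0.781 in metastases, 5.14, 9.28 and 11.4 in primary tumors and 1.36, 2.50 and 0.722 in proximal tubule cells. It fell in metastases against primary tumors (-2.53 ± 0.32, adjusted p = 4.11e-04). Hoxa11os, which passed the filter only through the primary tumors, was also called lower (-1.64 ± 0.24). Hotair, in the Hoxc cluster, was at most 0.234 FPKM in all libraries and was not tested.

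The microRNA gene Mir196a-1 lies between Hoxb9 and Hoxb13, and its product miR-196a is known to direct cleavage of Hoxb8 mRNA in mouse embryos. The mature sequences of the Hox cluster microRNAs fall into seed families, shown with bases 2 to 8 in capitals (RefSeq, GRCm38.p6).
mmu-miR-196a-5p: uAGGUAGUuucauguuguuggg
mmu-miR-196b-5p: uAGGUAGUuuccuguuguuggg
mmu-miR-10a-5p: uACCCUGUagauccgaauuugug
mmu-miR-10b-5p: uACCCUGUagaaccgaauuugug
The Hoxb8 transcript holds a site for miR-196a after its coding sequence, at chr11:96284888-96284909 on the plus strand (GRCm38), shown with Watson-Crick pairs in capitals and the wobble pair in lower case.
Hoxb8 site: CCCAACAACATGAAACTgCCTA
It pairs with 21 of 22 microRNA bases and forms 1 wobble pair, while the next best site among the other 38 members pairs with 15. The wobble pair lies in the seed, so this site is not itself an exact seed match. The 7-base seed match was found in 11 of 39 members and in 16.0% of 21877 genes. The Mir196a-1 row of the table had 93.4, 108 and 187 FPKM in allograft tumors, 42.0, 0 and 13.4 in metastases, 154, 84.7 and 113 in primary tumors and 139, 143 and 77.3 in proximal tubule cells. Metastases were below all other libraries, and the change against proximal tubule cells was -3.77 ± 1.05, adjusted p = 0.00841. A hairpin is so short that such values rest on few fragments, and mature microRNAs were not measured. Hoxb8 itself was also low in the metastases and the allograft tumors, and an effect of miR-196a on it was not tested.

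Genes that act on or with Hox genes were counted from lists of known function. Of 9 PBX, MEIS and PKNOX cofactors 1 fell in metastases against primary tumors, and against proximal tubule cells 5 rose in allograft tumors, 5 in metastases and 6 in primary tumors. Of all genes 52.2%, 54.0% and 48.2% rose in these 3 comparisons, so the counts were near the background. After rescaling to TPM 2 of the rises were kept in each, and the fall in metastases was lost. The opposite direction held 0 of them in these 4 comparisons, by limma's adjusted p or at an unadjusted p under 0.05. Meis3 had 6.71, 6.95 and 4.30 FPKM in allograft tumors, 5.31, 5.20 and 4.34 in metastases, 6.13, 1.29 and 2.49 in primary tumors and 0, 0.183 and 0 in proximal tubule cells. It rose against proximal tubule cells in allograft tumors (2.70 ± 0.34, adjusted p = 6.23e-05) and in metastases (2.49 ± 0.34, adjusted p = 1.23e-04). Meis1 was lower in allograft tumors than in metastases (-1.44 ± 0.33, adjusted p = 0.00965).

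Of 15 tested genes of retinoic acid signaling 1 rose and 3 fell in metastases against primary tumors, where 11.3% of all genes rose and 9.59% fell. Of the 3 falls, that of Rarb held in every alternative, while Aldh1a3 was lost in 11 of 13 and Cyp26a1 in 5. Rarb, the retinoic acid receptor gene that retinoic acid itself induces, had 1.55, 2.83 and 2.47 FPKM in allograft tumors, 2.14, 2.29 and 2.99 in metastases, 7.94, 9.77 and 13.2 in primary tumors and 2.80, 2.29 and 2.34 in proximal tubule cells. Each primary tumor was above all other libraries. Rarb rose in primary tumors against proximal tubule cells (1.68 ± 0.21, adjusted p = 1.61e-04), and fell against primary tumors in metastases (-1.68 ± 0.21, adjusted p = 4.60e-04) and in allograft tumors (-1.78 ± 0.21, adjusted p = 2.76e-04). Aldh1a1, an enzyme that makes retinoic acid, had 2.41, 7.92 and 1.90 FPKM in allograft tumors, 73.4, 131 and 173 in metastases, 9.68, 19.6 and 9.27 in primary tumors and 10.9, 17.8 and 19.2 in proximal tubule cells. It was highest in the metastases and rose there against primary tumors (3.19 ± 0.47, adjusted p = 0.00124). Crabp2, which carries retinoic acid, was higher in allograft tumors than in metastases (2.68 ± 0.28, adjusted p = 9.56e-05).

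Of 23 Polycomb and Trithorax genes 3 fell in metastases against primary tumors and 4 rose in allograft tumors against metastases, where 9.59% of all genes fell and 10.4% rose. The 3 falls, of Cbx7, Ezh1 and Jarid2, were all lost after rescaling to TPM and without primary tumors 2 and 3, and of the 4 rises that of Cbx2 was kept after rescaling to TPM. In the opposite direction limma called 0 in either comparison, and 2 in each were at an unadjusted p under 0.05. Cbx2, a Polycomb subunit, had 8.42, 6.90 and 8.60 FPKM in allograft tumors, 3.20, 2.41 and 2.68 in metastases, 3.52, 2.75 and 2.13 in primary tumors and 2.84, 2.52 and 1.73 in proximal tubule cells. Each allograft tumor was above the other 9 libraries, and the change against metastases was 1.25 ± 0.19, adjusted p = 0.00111. Against proximal tubule cells 10 of the 23 rose and 7 fell in allograft tumors, where 52.2% of all genes rose and 16.9% fell. In metastases 6 rose and 5 fell, where 54.0% of all genes rose and 14.4% fell. In primary tumors 3 rose and 1 fell, where 48.2% of all genes rose and 4.90% fell. After rescaling to TPM 1, 1 and 0 of these rises were kept, and 7, 5 and 1 of the falls. Ezh2, the Polycomb histone methyltransferase, rose against proximal tubule cells in allograft tumors (2.63 ± 0.43, adjusted p = 2.93e-04) and metastases (1.93 ± 0.43, adjusted p = 0.00235). Kdm6b, which removes the Polycomb mark, fell against proximal tubule cells in allograft tumors (-1.43 ± 0.24, adjusted p = 3.61e-04), in metastases (-1.43 ± 0.24, adjusted p = 4.01e-04) and in primary tumors (-1.32 ± 0.24, adjusted p = 0.00124). None of the 6 caudal and ParaHox genes passed the filter.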

How the data were processed

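The values are FPKM as deposited, which the authors computed per gene, with bcl2fastq 2.17.1.14 and Salmon on GRCm38 and mm10 per the submitters' processing notes. Gene lengths, strand and any filter are not stated. Gene IDs were matched to symbols for 24189 of 24432 genes, and coordinates are those of GENCODE M21. Groups were taken from the labels. FPKM are not counts, so no count test was run. The filter of at least 1 FPKM in at least 3 libraries left 16313 genes. Their log2 values, with a pseudocount of 1, were fitted by limma 3.58.1 (R 4.3.3) in 1 model of all 4 groups, with a trend and without covariates, after a test on simulated data. Benjamini-Hochberg adjustment ran over all genes of each of 6 comparisons, and an adjusted p under 0.05 was called. Where a group was listed at 0 no fold was given. Hoxa11 and Hoxa11os passed the filter only through the primary tumors, and Hoxb13 only through the allograft tumors. Their calls for these groups are not independent of the filter, also where they held in every alternative. Members whose mean reached 5 FPKM in a group, or called and among the 4 largest changes of a comparison, are given in every library, Hoxa11 and Hoxb1 were added after their values were seen, and others are given by range. The values of 1 member are not reported here, and the figures of single genes leave it out. Of the other lists, the called members with the largest change and the most abundant could be named. Hoxa11os, Hoxb5os, Meis1, Cbx2, Cbx7, Ezh1, Jarid2, Crabp2, Aldh1a3, Cyp26a1, Tcf21, Tbx4 and Tbx5 were also chosen after their values were seen. The members and lists were chosen with earlier results of these data known. Alternatives were a pseudocount of 0.1, no filter, rescaling to TPM, median-of-ratios scaling, only the 2 groups compared, a replicate block, leaving out primary tumors 2 and 3, and leaving out each library. Depth is not stated, so its estimate limits only the reading of low values.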

Additional observations from a re-analysis of the deposited data

How the results depend on the processing

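Counts of called Hox genes moved with the scaling and with the primary tumors. After rescaling to TPM, rises against proximal tubule cells numbered 2 in allograft tumors (11 before), 1 in metastases (3) and 5 in primary tumors (17), and falls 14 (4), 21 (13) and 7 (0). With median-of-ratios scaling the rises were 4, 1 and 9, and the falls 9 in allograft tumors and 2 in primary tumors. TPM also left 1 rise in allograft against primary tumors (2) and 7 against metastases (14). It turned the change against proximal tubule cells to -0.35 for Hoxb2 and -0.0506 for Hoxd9 in primary tumors, -0.0407 for Hoxb3 and -0.55 for Hoxb4 in allograft tumors, and -0.13 for Hoxb3 in metastases. The median change of all genes was then -0.37 in allograft tumors, -0.18 in metastases and -0.29 in primary tumors. With only the 2 groups compared, 15 genes fell in metastases (24) and 4 in allograft tumors (11) against primary tumors. Without primary tumors 2 and 3 these were 15 and 3, and 2 fell in primary tumors against proximal tubule cells (0), with 1 primary tumor assumed to vary like the other groups. The causes were not tested.

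Leaving out 1 library gave 6 to 13 rises and 3 to 6 falls in allograft tumors, 1 to 2 rises and 11 to 13 falls in metastases and 15 to 19 rises and 0 to 0 falls in primary tumors, each against proximal tubule cells. It gave 2 to 2 rises and 6 to 14 falls in allograft tumors and 0 to 0 rises and 16 to 24 falls in metastases against primary tumors. Allograft tumors against metastases gave 9 to 14 rises and 0 to 1 falls, the 1 without allograft tumor 3.

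Replicate numbers did not pair the libraries: the 18 same-numbered pairs correlated at -0.04 to 0.10 in their deviations, and 0 exceeded 0.1. With a replicate block 10 Hox genes rose and 4 fell in allograft tumors against proximal tubule cells, 3 and 12 in metastases, and 18 and 0 in primary tumors. The block gave 2 rises and 10 falls in allograft against primary tumors, 0 and 24 in metastases against primary tumors, and 13 and 0 in allograft tumors against metastases. A pseudocount of 0.1 and no filter kept all counts within 1.5 times. The depth of the proximal tubule libraries limits statements on genes listed at 0 there.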
